A study of Caenorhabditis elegans with 14 samples.

Results

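Mature miRNA levels were compared between *hrpk-1(tm5522)* and wild type larvae of *C. elegans* at the L4 stage, the last larval stage before adulthood. The comparison covered every strand with at least 10 counts in at least 2 of the 5 libraries, which kept 232 of the 371 strands in the deposited table, 147 guide strands and 85 star strands. A further 48 strands had 0 counts in all 5 libraries, and 91 had counts below the limit. The *hrpk-1(tm5522)* group held 2 libraries and the wild type group 3, out of 14 libraries in the series. All animals had the N2 strain background and were grown at 20 °C on OP50 bacteria. RNA came from whole animals, so that fewer cells of a type and less RNA per cell cannot be told apart. The tm5522 allele is an in-frame deletion in *hrpk-1* that leaves a truncated protein, and the study treats it as antimorphic, that is, as interfering with normal function rather than only lacking it. Neither a transgene nor a second mutation was named for these groups. The labels do not say whether the libraries of a group came from separate cultures, so p-values measure only the spread between these libraries. The libraries hold small RNA only, and *hrpk-1* mRNA itself was not measured.

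HRPK-1 is an RNA binding protein with KH domains, related to human hnRNP K, and it associates with the Argonaute ALG-1. A miRNA is cut from a hairpin precursor by the nucleases Drosha and Dicer, which leaves a duplex of a 5p and a 3p strand. An Argonaute keeps the guide strand, which pairs with target mRNAs mainly through its seed near the 5′ end, and the star strand is mostly degraded. In *C. elegans*, lin-4 and let-7 family miRNAs time the larval stages, lsy-6 sets the left and right identity of a pair of taste neurons, and the mir-35 family is needed in the embryo.

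The *hrpk-1(tm5522)* libraries held 11195163 and 13766699 counts, against 15618264, 14926345 and 19762103 in wild type, and 3 counts corresponded to between 0.152 and 0.268 ppm of a library's counts. These limits account for counting alone, because reads copied by PCR do not count separate molecules. The 10 most abundant strands took 74.1% and 73.7% of the counts in *hrpk-1(tm5522)*, against 80.6%, 79.8% and 87.1% in wild type. Wild type replicate 2 stood apart from the other wild type libraries. In it, 43 of the 232 strands were more than 2-fold away from both other wild type libraries after 1 CPM was added, compared with 3 strands for replicate 1 and 4 for replicate 3. The stage on the labels was checked with let-7-5p, which marks late larvae. It was at 47805 and 45644 ppm in *hrpk-1(tm5522)* L4 libraries and between 11490 and 29966 ppm in wild type L4 libraries, against between 7.003 and 34.6 ppm in the 6 embryo libraries of the series.

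Both increases and decreases were found in *hrpk-1(tm5522)* larvae. By edgeR's quasi-likelihood test with Benjamini-Hochberg adjustment over all 232 strands, 52 strands (22.4%) passed an adjusted p of 0.05, and these are referred to as called. Of them, 24 (10.3%) were higher and 28 (12.1%) lower than in wild type. Levels of 142 strands (61.2%) did not overlap between the groups. The median log2 fold change over all strands was -0.09 and the median absolute log2 fold change 0.81. Called strands came from the whole range of abundance. They made up 16.5% of the 91 strands with a mean under 10 CPM, 32.3% of the 62 strands between 10 and 100 CPM, 24.4% of the 41 strands between 100 and 1000 CPM and 18.4% of the 38 strands above 1000 CPM. Guide strands were called in 40 of 147 cases, 20 higher and 20 lower, and star strands in 12 of 85, 4 higher and 8 lower. The number of calls depended on which libraries were in the fit. The calls needed both *hrpk-1(tm5522)* libraries. With 1 of them left out, the group has no spread of its own and is assumed to vary like the wild type libraries. The count was 18 without wild type replicate 1, 115 without replicate 2 and 20 without replicate 3, and DESeq2 on the same 5 libraries called 80 strands. All 52 strands kept their direction in each of these fits, and 16 of them were called in all 3 fits that left out a wild type library. Another 4 lost the call without 1 wild type library, and 32 lost it both without replicate 1 and without replicate 3.

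**Figure D1:**
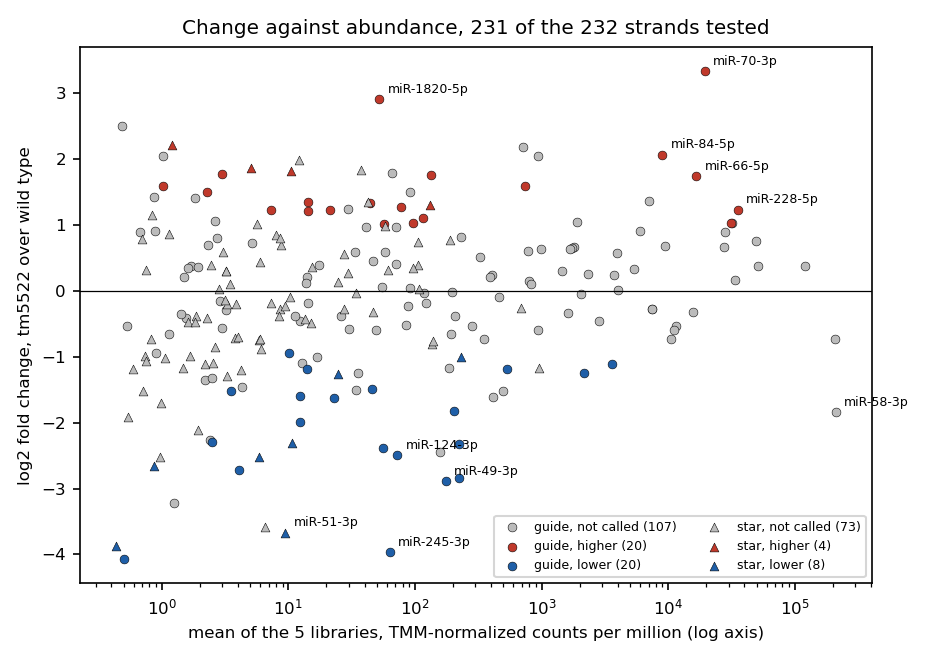
Each point is a strand, with its mean level over the 5 libraries on the x axis (TMM-normalized CPM, log axis) and its log2 fold change, *hrpk-1(tm5522)* over wild type, on the y axis; circles are guides, triangles are stars, red is called higher, blue called lower and grey not called. Calls lie above and below 0 at low and at high levels, and miR-254-5p, with 0 counts in both *hrpk-1(tm5522)* libraries, is left out because its fitted change depends on the prior count.

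Among guide strands that were higher, miR-1820-5p, miR-84-5p and miR-229-5p were the ones called in every fit that left out a wild type library. miR-1820-5p was at 109 and 108 CPM (counts scaled to a common library size by the TMM method) in *hrpk-1(tm5522)*, against 16.1, 11.3 and 15.8 CPM in wild type. The log2 fold change was 2.91 (standard error, SE, 0.27 and adjusted p = 0.00504), a 7.53-fold higher level. miR-84-5p, a member of the let-7 family, was at 15104 and 17996 CPM in *hrpk-1(tm5522)*, against 3712, 3722 and 4425 CPM in wild type. Every *hrpk-1(tm5522)* library was thus above every wild type library, and the wild type libraries lay close together, with a log2 fold change of 2.07 (SE 0.25, adjusted p = 0.00648). miR-229-5p was at 189 and 271 CPM in *hrpk-1(tm5522)*, against 71.0, 67.3 and 65.3 CPM in wild type (log2 fold change 1.76, SE 0.26, adjusted p = 0.0118).

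The largest increase belonged to miR-70-3p, which is encoded in an intron of *pmp-5*, the gene of a peroxisomal-type ABC transporter. Its levels were 50505 and 34428 CPM in *hrpk-1(tm5522)*, against 4515, 903 and 7243 CPM in wild type. The groups were far apart, but wild type replicate 2 lay well below the other wild type libraries, and the SE was 0.79 at a log2 fold change of 3.33 (adjusted p = 0.0341). The call was lost without wild type replicate 1 (adjusted p = 0.0741), while without replicate 2 the log2 fold change was 2.82. miR-66-5p, of the mir-64 family, was at 30797 and 26952 CPM in *hrpk-1(tm5522)*, against 8882, 6948 and 10016 CPM in wild type. Its groups did not overlap either, and its log2 fold change of 1.74 (SE 0.27, adjusted p = 0.0123) missed the threshold without wild type replicate 1 (adjusted p = 0.0530). 

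Other abundant guides were higher by smaller amounts. miR-228-5p, which is made in glia, was at 62207 and 46200 CPM in *hrpk-1(tm5522)*, against 19554, 28466 and 21198 CPM in wild type, a 2.35-fold higher level. miR-71-5p, which promotes long lifespan and acts in neurons, was at 46013 and 44312 CPM in *hrpk-1(tm5522)*, against 20026, 25056 and 20994 CPM in wild type, a 2.05-fold higher level. For both miRNAs the lowest *hrpk-1(tm5522)* library was above the highest wild type library, with an adjusted p of 0.0341 each. miR-248-3p was at 1473 and 981 CPM in *hrpk-1(tm5522)*, against 412, 439 and 370 CPM in wild type (log2 fold change 1.59, adjusted p = 0.0152). These 3 calls were lost without wild type replicate 1 (adjusted p between 0.0530 and 0.110) and without replicate 3 (between 0.0686 and 0.0879).

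The remaining called guides that were higher and had a mean of at least 100 counts were miR-797-5p, miR-1819-3p, miR-243-3p, miR-796-5p, miR-1829a-5p, miR-784-5p, miR-788-3p, miR-1829c-5p and miR-67-3p. Of these, miR-243 is known for binding the Argonaute RDE-1. Their log2 fold changes lay between 1.01 for miR-67-3p and 1.35 for miR-797-5p, with adjusted p-values between 0.0152 and 0.0435, and all 9 lost the call without wild type replicate 1 and without replicate 3 (adjusted p between 0.0530 and 0.151). With fewer counts, miR-2210-3p (log2 fold change 1.78), miR-2212-5p (1.60) and miR-4814-3p (1.51) were also called higher, and lost the call without wild type replicate 1 (adjusted p between 0.0530 and 0.119) and without replicate 3 (between 0.0761 and 0.134). Among strands numbered above 1000, guides and stars together, 7 of 48 were called higher and 1 lower.

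**Figure D2:**
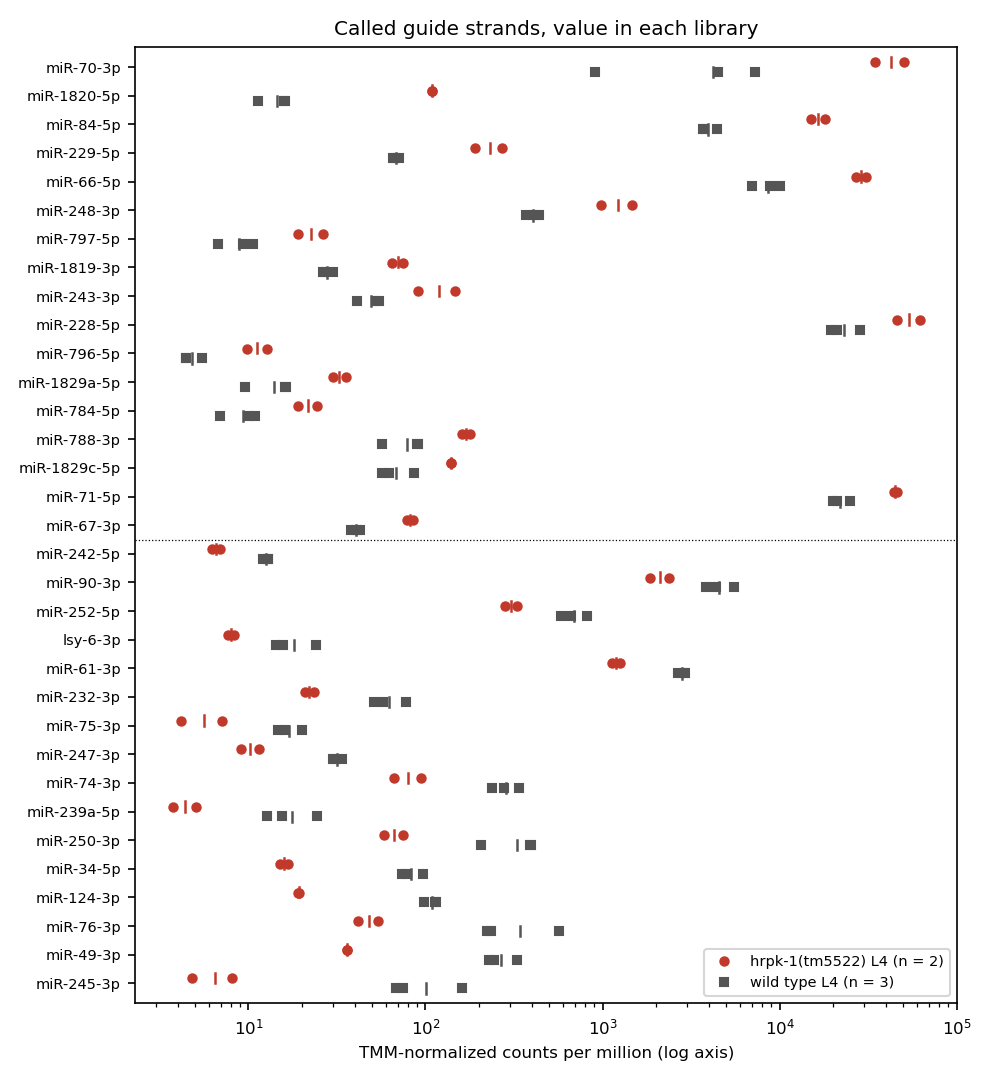
Each row is a called guide strand with a mean of at least 100 counts, sorted by its change, and the x axis gives TMM-normalized CPM on a log axis; red circles are the 2 *hrpk-1(tm5522)* libraries, grey squares the 3 wild type libraries, short vertical lines the means, and the dotted line separates strands that were higher from those that were lower. No overlap between the groups was a condition for a row, and 142 of all 232 strands tested (61.2%) met it. For miR-70-3p, miR-76-3p and miR-245-3p a wild type library lies away from the other wild type libraries.

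Guide strands that were lower included several of moderate abundance with changes of 4-fold or more. miR-245-3p was at 4.78 and 8.09 CPM in *hrpk-1(tm5522)*, against 74.3, 161 and 68.4 CPM in wild type. This was the largest decrease among called guides with a mean of at least 100 counts, with a log2 fold change of -3.97 (SE 0.56, adjusted p = 0.0113). miR-49-3p was at 36.2 and 36.1 CPM in *hrpk-1(tm5522)*, against 245, 330 and 230 CPM in wild type (log2 fold change -2.89, SE 0.31, adjusted p = 0.00504). miR-76-3p was at 54.2 and 41.6 CPM in *hrpk-1(tm5522)*, against 223, 570 and 233 CPM in wild type, where replicate 2 was the highest. The log2 fold change of miR-76-3p was -2.84 with all libraries and -2.28 without wild type replicate 2. 

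miR-124-3p, which is made in ciliated sensory neurons, was at 19.4 and 19.2 CPM in *hrpk-1(tm5522)*, against 98.1, 114 and 113 CPM in wild type. Replicates of either group were close to each other, and the level was 5.63-fold lower in *hrpk-1(tm5522)* (log2 fold change -2.49, SE 0.26, adjusted p = 0.00504). miR-34-5p, which takes part in responses to DNA damage and stress, was at 15.02 and 16.8 CPM in *hrpk-1(tm5522)*, against 78.8, 96.7 and 73.4 CPM in wild type (log2 fold change -2.38, SE 0.28, adjusted p = 0.00648). miR-250-3p was at 74.2 and 58.0 CPM in *hrpk-1(tm5522)*, against 390.1, 206 and 393 CPM in wild type, with a log2 fold change of -2.32 (SE 0.40, adjusted p = 0.0152). These 6 miRNAs, together with miR-239a-5p (log2 fold change -2.00, a miRNA reported to limit lifespan), miR-74-3p (-1.83) and miR-247-3p (-1.62), were called lower in every fit that left out a wild type library.

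Further called guides were lower by between 1.92-fold for miR-242-5p and 3.02-fold for miR-75-3p. miR-61-3p, which acts in the specification of vulval precursor cells, was at 1130 and 1257 CPM in *hrpk-1(tm5522)*, against 2660, 2876 and 2924 CPM in wild type. miR-90-3p was at 1863 and 2388 CPM in *hrpk-1(tm5522)*, against 4372, 5512 and 3841 CPM in wild type. In both cases the values of the groups were well separated, with adjusted p-values of 0.0211 and 0.0435. miR-232-3p (log2 fold change -1.49), miR-252-5p (-1.18) and lsy-6-3p (-1.18) were called lower as well. The calls of miR-61-3p, miR-90-3p, miR-252-5p, miR-242-5p, miR-75-3p and lsy-6-3p were lost without wild type replicate 1 (adjusted p between 0.0669 and 0.131) and without replicate 3 (between 0.0596 and 0.146), and that of miR-232-3p without replicate 3 (0.0664). Called lower with fewer counts were miR-43-3p (log2 fold change -2.29), miR-78 (-2.72), miR-791-3p (-1.52) and miR-5549-3p. miR-5549-3p had 0 and 1 counts in *hrpk-1(tm5522)*, against 13, 8 and 17 in wild type. These 4 calls were lost without wild type replicate 1 (adjusted p between 0.0530 and 0.142) and without replicate 3 (between 0.0617 and 0.131).

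miRNAs were next grouped by family, since members of a family share a seed and can act on common targets. The lists were drawn up with earlier results of these data known, so their counts are a description. They hold guide strands, and are to be read against the 27.2% of tested guides that were called (22.4% of all strands). Of the let-7 family, which drives larval cells to their later fates, 1 of 6 guides was called, miR-84-5p. This count leaves out miR-793-3p, because the list gave its name without an arm. miR-793-3p was tested and not called, and its log2 fold change lay between -0.38 and 0.26 over the alternative fits. let-7-5p was at 46468 and 45784 CPM in *hrpk-1(tm5522)*, against 28189, 8731 and 31055 CPM in wild type. Both *hrpk-1(tm5522)* values were above all wild type values, but the difference was not called in the main edgeR fit (log2 fold change 1.03, SE 0.53, adjusted p = 0.191). let-7-5p passed in 1 of the 11 other fits that kept both *hrpk-1(tm5522)* libraries. Its log2 fold change lay between 0.61 and 1.56 over the alternative fits. The log2 fold changes of miR-48-5p (0.37), miR-241-5p (0.68), miR-795-5p (0.97) and miR-794-5p (-0.19) did not pass in the main fit either. That of miR-48-5p was -0.02 without wild type replicate 2. lin-4-5p and miR-237-5p, the lin-4 family, had log2 fold changes of -0.46 and 0.66 and were not called.

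The mir-64 family had 2 of 4 guides called higher, miR-66-5p and miR-229-5p, while the log2 fold changes of miR-65-5p (0.17) and miR-64-5p (-0.60) did not pass the threshold, and that of miR-65-5p was -0.21 without wild type replicate 2. The lists of the mir-2 and mir-44 families had 2 called members each, and all members listed were on the negative side. Sequences were not analysed, so a list may lack guides that share its seed. In the mir-2 family, miR-43-3p (log2 fold change -2.29) and miR-250-3p (-2.32) were called lower and miR-2-3p (-0.66, adjusted p = 0.0947) was not. In the mir-44 family, miR-61-3p (-1.24) and miR-247-3p (-1.62) were called lower. The remaining members, miR-45-3p and miR-44-3p, had almost the same counts in each library, 62806 and 62689 in *hrpk-1(tm5522)* replicate 1, and both were at -0.28. How reads that match both would be counted is not given in the sources used here, so the pair is reported as uncertain. 

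In 6 further families 1 member was called, and that member was lower. A separate list paired miR-63-3p (0.64, edgeR adjusted p = 0.129) with miR-70-3p, which was called higher, as given above. Whether this pair shares a seed was not checked, and it is not treated as a family. A single lower call was the case for miR-239a-5p with miR-238-3p (0.91) and miR-239b-5p (0.21) not called, for miR-74-3p with miR-72-5p (-0.73) and miR-73-3p (0.24) not called, and for miR-49-3p with miR-83-3p (0.21) not called. It was also the case for miR-75-3p with miR-79-3p (0.15), for miR-90-3p with miR-50-5p (-0.34) and miR-62-3p (-0.38), and for miR-232-3p with miR-357-3p (-1.24, adjusted p = 0.0975). Within the mir-49/83 family the less abundant member was the one called, since miR-83-3p was at 346 and 505 CPM in *hrpk-1(tm5522)*, against 378, 364 and 362 CPM in wild type. The summed level of that family was 382 and 542 CPM in *hrpk-1(tm5522)*, against 623, 694 and 592 CPM in wild type. 

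No call was made in the mir-35, mir-51, mir-58, mir-46/47 families by the main edgeR fit to all 5 libraries, nor for miR-240-3p and miR-786-3p. The mir-35 family, whose members are made mainly in embryos, had 8 guides with log2 fold changes between -2.45 and 1.07, and their summed level was 1604 and 1448 CPM in *hrpk-1(tm5522)*, against 1319, 2931 and 2956 CPM in wild type. These values overlapped. The mir-51 family, which is needed for attachment of the pharynx, had a median log2 fold change of 0.00 over 6 guides. In the mir-58 (bantam) family, miR-58-3p (-1.84, SE 0.70, adjusted p = 0.103) and the other members differed in sign, since miR-80-3p, miR-81-3p, miR-82-3p and miR-2209a-3p had log2 fold changes between 0.38 and 1.42. None of these passed the threshold in the main edgeR fit. miR-58-3p passed in 5 of the 11 other fits that kept both *hrpk-1(tm5522)* libraries. One of these was the fit without wild type replicate 2 (-2.30, adjusted p = 0.00179). Among such fits, miR-82-3p passed in 1 of 11 and miR-2209a-3p in 3 of 10, while miR-80-3p and miR-81-3p passed in 0.

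Tissue restricted miRNAs were listed separately. Each of the 3 guides listed as neuronal, miR-124-3p, lsy-6-3p and miR-791-3p, was called lower. lsy-6-3p was at 7.64 and 8.31 CPM in *hrpk-1(tm5522)*, against 14.4, 24.2 and 15.6 CPM in wild type (adjusted p = 0.0482). miR-791-3p, which acts in neurons that sense CO2, was at 1.56 and 1.75 CPM in *hrpk-1(tm5522)*, against 5.78, 3.05 and 5.52 CPM in wild type (adjusted p = 0.0485). Both had p-values close to the threshold, and both lost the call without wild type replicate 1 (adjusted p = 0.0669 for lsy-6-3p and 0.142 for miR-791-3p) and without replicate 3 (0.0842 and 0.131), so that of the 3 only miR-124-3p was called in every fit that left out a wild type library. The list was drawn up with earlier results of these data known and does not hold every miRNA found in neurons. Outside it, miR-71-5p, which also acts in neurons, was higher, as given above. miR-1-3p of muscle was at 123183 and 177855 CPM in *hrpk-1(tm5522)*, against 190001, 268628 and 287531 CPM in wild type (log2 fold change -0.72, adjusted p = 0.148). miR-60-3p of the intestine had a log2 fold change of 0.33 (adjusted p = 0.437) with overlapping values. Markers of these tissues other than miRNAs were not measured, and the part of tissue composition in these results was not tested.

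**Figure D3:**
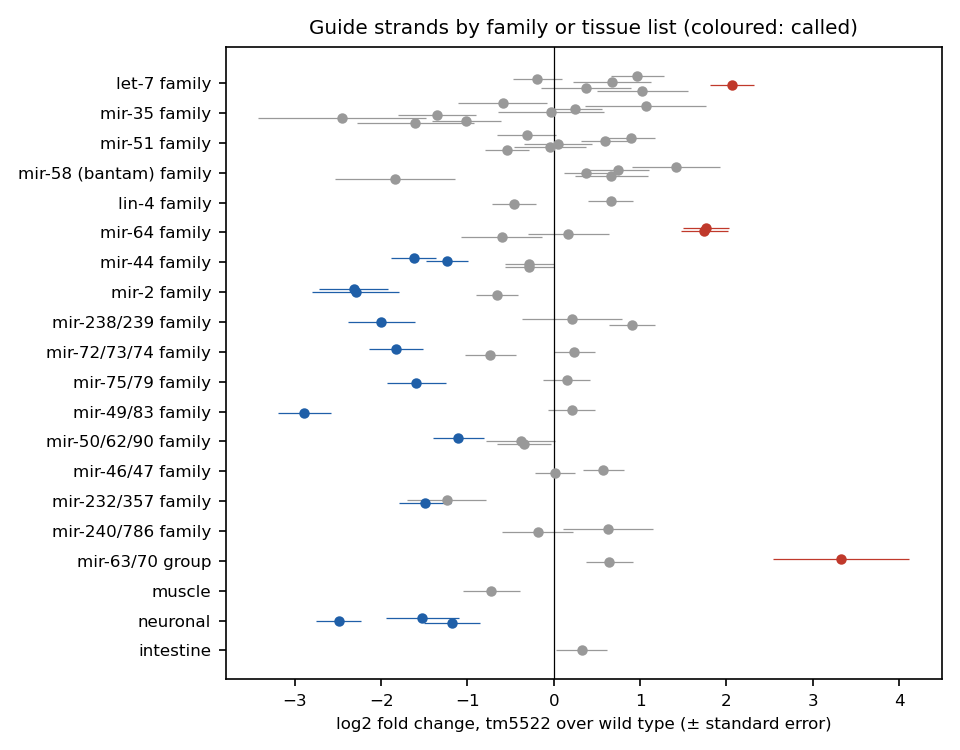
Each point is a guide strand, placed by its log2 fold change, *hrpk-1(tm5522)* over wild type, with bars of 1 standard error; rows are the family or tissue lists, red points were called higher, blue points called lower and grey points not called. The 3 guides listed as neuronal, which are not all miRNAs found in neurons, are blue at between -2.49 and -1.18. Red points occur in the let-7 and mir-64 families and for miR-70-3p at 3.33.

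Of the 10 guides most abundant in wild type, miR-228-5p and miR-71-5p were called, and the other 8 were not. miR-58-3p took 8.41% of counts on average in *hrpk-1(tm5522)* and 25.9% in wild type (n = 2 and 3 libraries). By library it was at 79935 and 86260 CPM in *hrpk-1(tm5522)*, against 260293, 98621 and 533650 CPM in wild type, a span wider among wild type libraries than the gap between the groups. miR-48-5p was the most abundant strand of *hrpk-1(tm5522)* replicate 1 (15.5%) and miR-1-3p that of replicate 2 (17.7%), against miR-58-3p in wild type replicates 1 and 3 (27.7% and 37.2%) and miR-1-3p in replicate 2 (35.4%). miR-1-3p was thus the most abundant strand in 1 library of each group. miR-82-3p was at 64553 and 66016 CPM in *hrpk-1(tm5522)*, against 36854, 26372 and 53240 CPM in wild type (log2 fold change 0.75, adjusted p = 0.156). The values of miR-81-3p, at 60158 and 59638 CPM in *hrpk-1(tm5522)*, against 39149, 45698 and 53640 CPM in wild type, did not overlap either (0.38, adjusted p = 0.316). Levels of miR-80-3p overlapped, at 28855 and 42228 CPM in *hrpk-1(tm5522)*, against 25755, 12360 and 29136 CPM in wild type, as did those of miR-65-5p, at 36765 and 36205 CPM in *hrpk-1(tm5522)*, against 39968, 14977 and 42402 CPM in wild type. Of 2 further guides that the study names, miR-86-5p was at 199 and 270 CPM in *hrpk-1(tm5522)*, against 528, 1036 and 461 CPM in wild type. It narrowly missed the threshold in the main edgeR fit to all 5 libraries (log2 fold change -1.53, adjusted p = 0.0532). It passed in 9 of the 11 other fits that kept both *hrpk-1(tm5522)* libraries. One of these was the fit without wild type replicate 2 (-1.11, adjusted p = 0.00263). miR-42-3p was at 669 and 770 CPM in *hrpk-1(tm5522)*, against 645, 1870 and 731 CPM in wild type, with overlapping values (-0.59, adjusted p = 0.422, and 0.03 without wild type replicate 2). TMM scaling factors ranged from 0.997 to 1.03 in *hrpk-1(tm5522)* and from 0.697 to 1.32 in wild type. With library totals as the scale instead, 50 strands were called, 21 higher and 29 lower, of which 31 were among the 52.

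Star strands were examined next. Their share of all counts was 0.346% and 0.301% in *hrpk-1(tm5522)*, against 0.388%, 0.579% and 0.243% in wild type, and the difference of the means of -0.0797 percentage points was not significant (exact two-sided permutation test, p = 0.8, where 0.2 is the smallest p that 2 libraries against 3 allow). Without wild type replicate 2 the difference was 0.00819. Single star strands did differ. let-7-3p, the star of let-7, was at 2.87 and 3.42 CPM in *hrpk-1(tm5522)*, against 21.5, 11.7 and 13.8 CPM in wild type (log2 fold change -2.31, SE 0.38, adjusted p = 0.0140). miR-236-5p had 233 and 228 counts in *hrpk-1(tm5522)*, against 84, 101 and 74 in wild type (log2 fold change 1.83, SE 0.25, adjusted p = 0.00981). Both were called in each fit that left out a wild type library, as were miR-56-5p (1.86) and miR-2-5p (-2.52). miR-51-3p had 9 and 21 counts in *hrpk-1(tm5522)*, against 369, 90 and 250 in wild type, and lost its call without wild type replicate 1 (adjusted p = 0.0530). miR-230-5p (1.31), miR-72-3p (-1.27) and miR-71-3p (-0.997) were called as well, and lost the call without wild type replicate 1 (adjusted p between 0.0700 and 0.159) and without replicate 3 (between 0.0695 and 0.142). With fewer counts, miR-42-5p (log2 fold change 2.22, adjusted p = 0.0210) was called higher, and miR-86-3p (-2.66, adjusted p = 0.0258) and miR-252-3p were called lower. miR-252-3p had 1 and 0 counts in *hrpk-1(tm5522)*, against 14, 12 and 9 in wild type. At the limit of detection, miR-254-5p had 0 and 0 counts in *hrpk-1(tm5522)*, which allows levels of up to 0.260 and 0.219 CPM, against 9, 26 and 11 counts in wild type. These 4 calls were lost without wild type replicate 1 (adjusted p between 0.0576 and 0.120) and without replicate 3 (between 0.0596 and 0.0841).

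The ratio of guide to star counts within a library does not depend on how libraries are scaled. It could be tested for 83 hairpins, with limma on log2 ratios and a pseudocount of 0.5. The ratio differed in 32 of them (38.6%), 19 higher and 13 lower in *hrpk-1(tm5522)*. All 32 kept their direction in each alternative, and 22 passed in all 3 fits that left out a wild type library. The count was 8 without *hrpk-1(tm5522)* replicate 1 and 10 without replicate 2. let-7 had the lowest p-value. There were 15976 and 13229 guide reads per star read in *hrpk-1(tm5522)*, against 1309, 744 and 2245 in wild type, a difference of 3.49 on the log2 scale (SE 0.50, adjusted p = 9.2e-04). Both strands contributed, since let-7-3p was called lower and let-7-5p was on the higher side without being called.

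Hairpins differed in which strand changed. For miR-1820 the ratio was 37.4 and 37.7 in *hrpk-1(tm5522)*, against 5.77, 4.01 and 5.53 in wild type. Its star had 33 and 39 counts in *hrpk-1(tm5522)*, against 46, 55 and 39 in wild type, and a log2 fold change of only 0.03, so the difference lay in the guide. For miR-84 the ratio was 1284 and 1407 in *hrpk-1(tm5522)*, against 190, 286 and 230 in wild type, again with a star that was not called (-0.49). miR-250 went the other way, with ratios of 1.97 and 1.90 in *hrpk-1(tm5522)*, against 9.06, 7.98 and 11.0 in wild type. Here the star had 433 and 419 counts in *hrpk-1(tm5522)*, against 714, 507 and 493 in wild type (log2 fold change -0.03), while the guide was lower. miR-124 likewise had ratios of 5.96 and 6.67 in *hrpk-1(tm5522)*, against 29.9, 23.5 and 48.0 in wild type, with 37 and 39 star counts in *hrpk-1(tm5522)*, against 54, 95 and 32 in wild type. For miR-236 it was the star that was called, and the ratio was 9.70 and 14.9 in *hrpk-1(tm5522)*, against 61.4, 62.6 and 60.2 in wild type (log2 difference -2.35, adjusted p = 0.00153).

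In other hairpins with a called ratio the strands differed by similar amounts in opposite directions, as for miR-71 (log2 fold change of the guide 1.04 and of the star -0.997) and miR-228 (guide 1.23, star -1.10, the star not called, adjusted p = 0.0940). Over all 83 hairpins the strands moved in opposite directions in 38. At least 1 strand was called in 34 hairpins, and in 16 of these the other strand had the opposite sign. Both strands were called in 2 hairpins, miR-252, where both were lower, and miR-71, where the guide was higher and the star lower. In some hairpins the strand marked as guide was the less abundant. For miR-229 there were 0.344 and 0.497 guide reads per star read in *hrpk-1(tm5522)*, against 0.0961, 0.0293 and 0.100 in wild type. For miR-239a the values were 0.165 and 0.171 in *hrpk-1(tm5522)*, against 0.486, 1.39 and 0.564 in wild type, so that the strand marked as star prevailed more in *hrpk-1(tm5522)*. Counts of 0 set the size of some ratios through the pseudocount, as for the stars of miR-254 and of miR-81. The star miR-81-5p had 6 and 0 counts in *hrpk-1(tm5522)*, against 18, 39 and 17 in wild type.

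**Figure D4:**
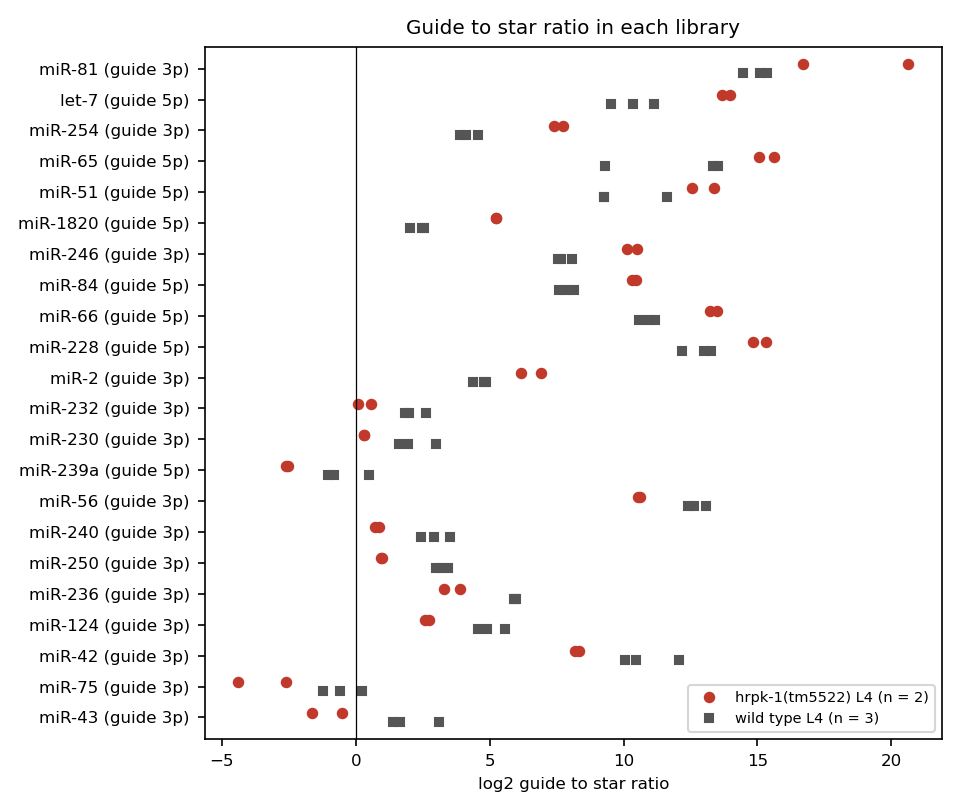
Each row is a hairpin whose guide to star ratio was called in all 3 fits that left out a wild type library, with the arm of its guide in brackets, and the x axis is the log2 ratio within a library (pseudocount 0.5); red circles are the 2 *hrpk-1(tm5522)* libraries and grey squares the 3 wild type libraries. let-7 lies at 13.96 and 13.69 in *hrpk-1(tm5522)* and between 9.54 and 11.13 in wild type, and miR-236 at 3.28 and 3.89 against 5.91 to 5.97 in wild type.

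When the same ratios were arranged by arm, the 5p strand gained on the 3p strand in 50 of 83 hairpins. This arrangement was made after the values had been seen and is given as a description with no test. Of the 32 called ratios, 24 moved toward the 5p strand and 8 toward the 3p strand. Hairpins with the guide on the 5p arm accounted for 13 of the called ratios, 12 higher and 1 lower, and hairpins with the guide on the 3p arm for 19, 7 higher and 12 lower. The median log2 ratio of 5p to 3p counts was -1.61 and -1.65 in the *hrpk-1(tm5522)* libraries, against -2.052, -2.998 and -2.387 in wild type L4 libraries. It lay between -2.51 and -2.21 in the *hrpk-1(zen17)* L4 libraries, from a null allele, and between -3.04 and -1.73 in the embryo libraries. The *hrpk-1(tm5522)* values were thus the highest of the 14. The median shift per hairpin was 0.28 on the log2 scale, with 0.88 over the 32 hairpins with a 5p guide and -0.14 over the 51 with a 3p guide, and it was 0.35, 0.35 and 0.17 without wild type replicates 1, 2 and 3. In the count test, guides of the 5p arm were called higher in 12 of 45 cases and lower in 4 (35.6% called). Those of the 3p arm were called higher in 8 of 87 and lower in 15 (26.4% called). Over all 147 guides tested, 20 were called higher and 20 lower (27.2%).

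**Figure D5:**
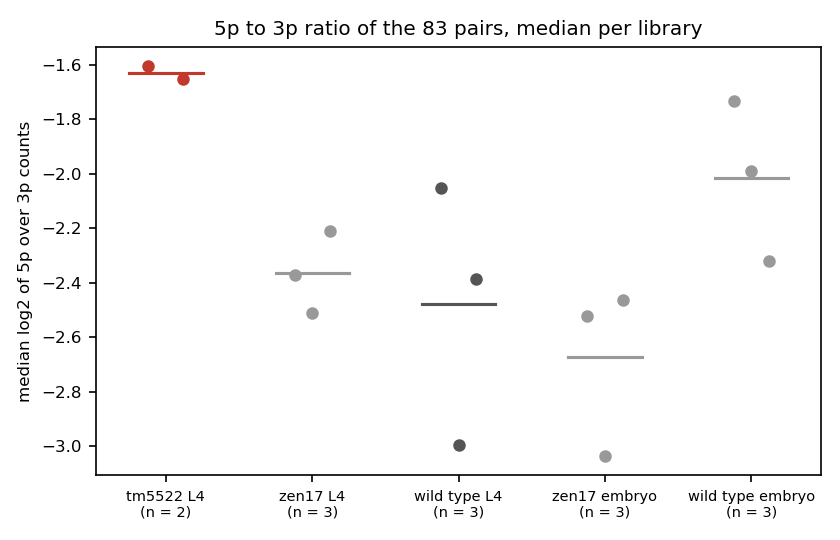
Each point is a library, the x axis gives its group, the y axis the median over 83 hairpins of the log2 ratio of 5p to 3p counts, and horizontal lines are group means. The 2 *hrpk-1(tm5522)* L4 libraries lie at -1.61 and -1.65, above every other library, and the 3 wild type L4 libraries spread from -2.998 to -2.052.

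Positions of miRNA genes were taken from the Ensembl annotation of the WBcel235 assembly, where 144 of the 149 miRNAs tested were found by name. They came from the annotation and not from the count table, whose build is not given in the sources used here. Of 142 guides with a position, 28.2% were called, 20 higher and 20 lower. In introns of protein coding genes on the same strand, 9 of 36 guides were called higher and 2 lower, and between protein coding genes 10 of 85 were called higher and 16 lower. In introns of genes on the opposite strand 0 of 17 were called higher and 1 lower. By chromosome, 0 of 27 guides on chromosome II were called higher and 2 lower, against 10 higher and 7 lower of 47 on the X chromosome.

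Genes within 10 kb of each other on the same strand were treated as clusters, which are often transcribed together. Their members did not always move together. mir-229, mir-64, mir-65 and mir-66 lie in a row on chromosome III (2172452 to 2173206, plus strand) in an intron of *gcn-1*, and their guides had log2 fold changes of 1.76, -0.60, 0.17 and 1.74, the outer members being called. mir-247 and mir-797 lie side by side on the X chromosome (4756971 to 4757197, plus strand) between protein coding genes, with miR-247-3p called lower (-1.62) and miR-797-5p called higher (1.35). mir-73, mir-74 and mir-75, also on the X chromosome (2368765 to 2372549, plus strand), had log2 fold changes of 0.24, -1.83 and -1.59. In other clusters the members had the same sign. miR-250-3p and miR-61-3p were both called lower, and their genes lie on chromosome V (11769917 to 11770156, minus strand). miR-2212-5p and miR-1819-3p were both called higher, and their genes lie on the X chromosome (16207829 to 16208035, plus strand). Over the 53 guides in clusters, 7 were called higher and 8 lower, against 13 and 12 of 89 outside clusters.

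Levels in *hrpk-1(zen17)* L4 larvae, which lack the protein, are set beside these values as a description, in ppm of library counts. miR-1820-5p was at 112 and 108 ppm in *hrpk-1(tm5522)*, 25.1, 52.1 and 21.7 ppm in *hrpk-1(zen17)* and 17.2, 14.9 and 11.0 ppm in wild type. miR-66-5p was at 31683 and 26870 ppm in *hrpk-1(tm5522)*, 13893, 20916 and 14225 ppm in *hrpk-1(zen17)* and 9442, 9143 and 6980 ppm in wild type. For both, the *hrpk-1(zen17)* libraries were between the other groups. miR-245-3p was at 4.91 and 8.06 ppm in *hrpk-1(tm5522)*, 74.7, 117 and 86.5 ppm in *hrpk-1(zen17)* and 79.01, 211 and 47.7 ppm in wild type, with the *hrpk-1(zen17)* values inside the wild type range. miR-34-5p was at 15.5 and 16.8 ppm in *hrpk-1(tm5522)*, 59.3, 143 and 62.5 ppm in *hrpk-1(zen17)* and 83.8, 127 and 51.2 ppm in wild type, again with overlap between *hrpk-1(zen17)* and wild type. Both alleles were set against the same wild type libraries, and no overlap between them was computed.

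To see whether strands that differed in *hrpk-1(tm5522)* also vary with stage, *hrpk-1(zen17)* L4 libraries were compared with *hrpk-1(zen17)* embryo libraries, none of which enter the comparison above. The median log2 difference of L4 over embryo was 0.67 for the 24 strands called higher in *hrpk-1(tm5522)*, -0.27 for 25 of the strands called lower and 0.02 over all 222 strands measured in both. Both sets spread widely to either side of 0. Strands called higher lay between -3.002 for miR-42-5p and 7.06 for miR-70-3p, with miR-1820-5p at -1.87 and miR-84-5p at 5.87. Strands called lower lay between -4.41 for miR-43-3p and 10.1 for let-7-3p, with miR-247-3p at 5.89 and miR-34-5p at 2.38. The stage difference and the change in *hrpk-1(tm5522)* had a Spearman correlation of 0.27 over these 222 strands. This describes strands, which are not independent replicates, and whether animals of the 2 groups differed in age within L4 was not tested.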

How the data were processed

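Small RNA was size selected on gels, and libraries were made with a NEXTflex kit and sequenced on an Illumina NextSeq. The authors deposited whole-number read counts per mature miRNA strand, without normalization, with guide and star strands marked. Per the labels, cutadapt 1.15 and Bowtie were used; the build, the annotation and the handling of reads matching more than 1 miRNA are not given in the sources used here.

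The 232 strands that reached 10 counts in 2 or more of the 5 libraries were tested with edgeR 4.0.16 in R 4.3.3 (TMM, quasi-likelihood F test, group as the only term, Benjamini-Hochberg adjustment across all strands, threshold 0.05). CPM use the TMM-scaled library size, and ppm the total of a library in the table. Standard errors were derived from the F statistic. limma 3.58.1 (moderated test with trend) was applied to log2 guide to star ratios, adding a pseudocount of 0.5 to each count. The star share was tested with an exact permutation test in scipy 1.17.1. Alternatives were RLE size factors, library totals, DESeq2 1.42.0, other filters, fits over 8 or 14 libraries, a replicate block, a pseudocount of 5 and each library left out. The count test was checked beforehand on simulated counts with known changes. The ratio test was checked on simulated log2 ratios, without the trend used here, and the other steps were not checked by simulation. Depth was between 11195163 and 19762103 counts per library. No library pair agreed within sampling noise, so none was treated as a duplicate.

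Strands given with full values were called guides whose counts averaged 100 or more and whose groups did not overlap, the star strands that changed most with the same limits, the 10 guides most abundant in wild type, those named by the study, and members of the family lists; other called strands are named with a value, a count or a range. The comparison, the lists and the rule were chosen with earlier results of these data known. Sequences of miRNAs and sequence features were not analysed here, nor were Northern and Western blots. Figures were drawn with matplotlib 3.10.9.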

Additional observations from a re-analysis of the deposited data

How the results depend on the processing

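The count of called strands was 52 and stayed within 1.5 times of it with RLE size factors, library totals, other filters on low counts and the replicate block. It was 80 with DESeq2, 85 in a fit over the 8 L4 libraries and 81 in a fit over all 14 libraries; 51, 52 and 49 of the 52 were among these. With a library left out it ranged from 0 to 115, and the called guide to star ratios, 32 in all, from 8 to 44. Fits with 1 *hrpk-1(tm5522)* library assume that it varies like the wild type libraries. The star share difference ranged from -0.160 to 0.00819 percentage points over these fits. Among strands not called, the log2 fold change ranged with a wild type library left out from -0.016 to 0.929 for miR-48-5p, from -0.205 to 0.409 for miR-65-5p and from -0.807 to 0.031 for miR-42-3p. The sign turned without wild type L4 replicate 2 in each case; the cause was not tested. Of the 52 called strands, 16 passed in all alternatives that kept both *hrpk-1(tm5522)* libraries, and 70 strands not called passed in at least 1 alternative.

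Replicate numbers are shared between the groups, but nothing in the labels ties them to a batch, and same-numbered libraries did not deviate together (correlations of -0.00916 and 0.167), so the numbers were not treated as pairs. With the replicate block, 51 strands were called, 26 higher and 25 lower, 34 of them among the 52, and 29 ratios.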

Other observations

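Several strands with large differences stood just outside the threshold. miR-85-3p was at 1396 and 1283 CPM in *hrpk-1(tm5522)*, against 408, 77.1 and 399 CPM in wild type (log2 fold change 2.18, edgeR adjusted p = 0.0588). miR-246-3p, a miRNA linked to long lifespan, was at 1962 and 1498 CPM in *hrpk-1(tm5522)*, against 553, 140 and 562 CPM in wild type (2.05, adjusted p = 0.0528), and its guide to star ratio was called higher by 2.56 on the log2 scale (limma adjusted p = 0.00485). For both, wild type replicate 2 was the lowest library. miR-65-3p had 8 and 14 counts in *hrpk-1(tm5522)*, against 56, 466 and 56 in wild type, where the same replicate was the highest (-3.58, adjusted p = 0.0588). The star miR-240-5p was at 74.1 and 56.8 CPM in *hrpk-1(tm5522)*, against 22.9, 6.16 and 25.9 CPM in wild type, while its guide was at 122 and 104 CPM in *hrpk-1(tm5522)*, against 175, 70.8 and 140 CPM in wild type, and the guide to star ratio was called lower (-2.16, limma adjusted p = 0.00265).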
